A study of Rattus norvegicus with 42 samples.

Results

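The members described here are 751 soleus transcription start site peaks whose mean level stood at 0.5 or less of the control level on the first day of reloading. They were found among the 9969 non-mitochondrial peaks of the deposited peak table. Tags were scaled to counts per 1000000 tags (CPM) by the total of each library, 1 CPM was added to each group mean, and the ratio of soleus R1 to soleus control was taken. A peak also had to have soleus and EDL control means, each with 1 CPM added, within 4 times of each other in either direction. At low levels the means themselves could differ more. Without that second condition 971 peaks qualified. The members were thus chosen by their soleus R1, soleus control and EDL control values, and contrasts of those 3 groups are described below and not tested.

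The study used 21 mature Wistar rats in 7 phases of 3 rats each, and every rat gave 1 soleus and 1 EDL library. The phases were active control rats, tail suspension with unloaded hindlimbs for 1, 3 or 7 days (D1, D3 and D7), and 7 days of unloading followed by reloading for 1, 3 or 7 days (R1, R3 and R7). No genetic change or drug treatment was part of the design, and all rats were killed under deep ether anaesthesia. Each RNA came from a whole muscle, and the rats' ages are not given in the sources used here. The rats are named below by their labels, from U1 to U26.

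Soleus is a postural muscle rich in slow fibres. It loses mass and takes on faster fibre properties when it no longer bears weight, while EDL (extensor digitorum longus) is a fast muscle that is less affected by disuse. CAGE reads the capped 5′ ends of RNA, so that a peak marks where transcripts begin and its tag count reflects how many such transcripts were present. A fall in a whole-muscle library can come from fewer cells of a type or from less RNA per cell, and these data cannot tell them apart. CPM are shares of a library, so a fall can also come with a rise of other RNAs, which was not tested.

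Libraries held from 1696341 to 22116123 tags in peaks, with a median of 7970000. The share of all tags that lay inside peaks ran from 72.4% to 95.9%, and the lowest shares were those of both muscles of control rat U7. The libraries were sequenced on 6 lanes that largely followed the phases: all soleus controls were on lane 1, all soleus D7 on lane 3 and all soleus R1 on lane 4. Lane and phase can therefore hardly be told apart, and fits with the lane as a term are given beside the tests. Those fits used all 42 libraries, with lane terms shared by both muscles. The peaks carry positions on the Rnor_6.0 build without gene names, so neither the members nor the muscles were checked against lists of named marker genes. A muscle difference by position, in the block that holds the study's Myh4 view, is given below.

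The fall at R1 was not equally clear in all members. In 549 of the 751 members (73.1%) all 3 R1 libraries lay below all 3 controls, against 16.2% of all peaks, which is a description since these libraries chose the members. When any 1 of the 9 libraries used by the rule was left out, 367 members (48.9%) still met it every time. In 21 members, 2.8% of them against 0.512% of all peaks, 1 control library stood at 5 or more times the next control library, and U7 was that library in 19. The number of members ran from 635 to 854 when 1 library was left out, and the scale moved it further. On TMM-scaled CPM, where the R1 to control ratio of the median peak moves from 0.29 to −0.04 in log2, 1341 peaks met the same rule, 734 of them members. With 5 CPM added in place of 1, 419 peaks met it.

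The members nearest the limit had low levels. The last peaks inside it were chr8:33396587-33396663 on the plus strand with a ratio of 0.49994, chr18:74160794-74160924 on the plus strand with 0.49934 and chr2:205539619-205539713 on the plus strand with 0.49898. The first peaks outside it were chr3:63743898-63744171 on the minus strand with 0.50037, chr10:46172063-46172187 on the minus strand with 0.50061 and chr3:63747779-63748025 on the minus strand with 0.50063. The first of the outer peaks and the third lie among members on chromosome 3, so the limit passes through a group of peaks that varied together.

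Members were unevenly placed in the genome. On chromosome 3, 171 of 967 peaks (17.7%) were members, while on chromosome 10 the share was 52 of 877 (5.93%). A run of members, defined as same-strand members with gaps of at most 10000 nt, held 134 members on the minus strand of chromosome 3 in 3 stretches and 26 on the plus strand of chromosome 10. Another 101 members were near-identical in their values to a distant peak, 87 formed shorter runs, and 403 stood alone or in pairs. With 3 such members in the chromosome 3 runs and 2 in the chromosome 10 run, 106 of the 751 members had a distant copy. Of all 9969 peaks, 469 had one. Members were 244 nt wide at the median, against 207 nt for all peaks.

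The members took their smallest mean part of the soleus libraries at R1, and of the EDL libraries at D3. In soleus they held 13.1% ± 1.82 of the tags in control, and 10.2% ± 3.88, 9.21% ± 2.72 and 11.8% ± 0.306 in the 3 unloading phases (SD, n = 3 each). On the first day of reloading the share was 5.05% ± 0.504, and it was 9.26% ± 1.71 by R3 and 12.5% ± 1.87 by R7. In EDL the means were 13.3% in control, 8.59% at D3 and between 11.9% and 12.4% in the other phases. These shares pool kinds of members that moved differently. In EDL the members with near-identical copies, described below, summed to a mean of 54620 CPM in control and 15850 at D3. Single members summed there to 59100 CPM in control, 36700 at D1 and 53640 at D3. In soleus, members with copies summed to 36470 CPM in control and 48290 at D7, and single members to 71390 and 48660. The 3 soleus R1 libraries lay between 4.63% and 5.61%, and 1 soleus D1 library, of U25, at 5.71% was close to them.

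**Figure D1:**
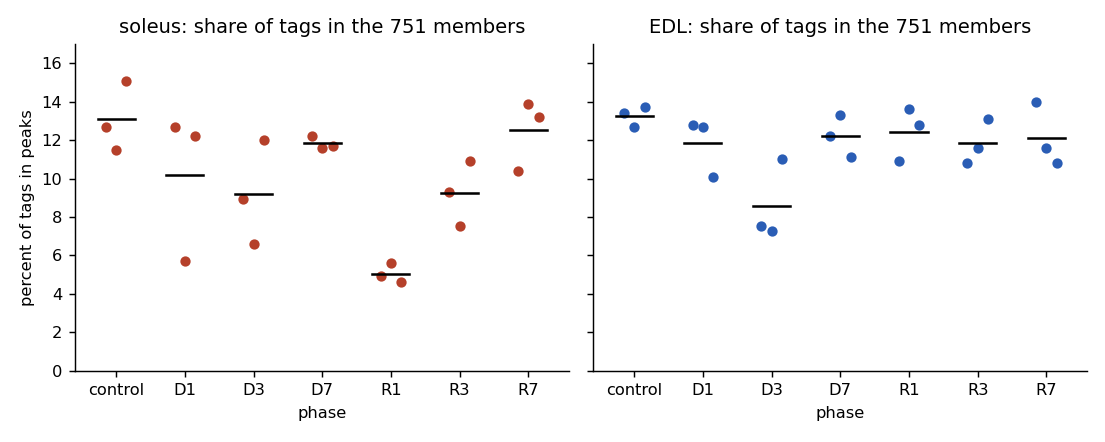
Share of each library's tags that lay in the 751 members, by phase, for soleus (left) and EDL (right). Points are libraries and bars are means of 3. The soleus R1 libraries sit between 4.63% and 5.61%, while the EDL R1 libraries sit at 10.9%, 13.6% and 12.8% and the EDL controls between 12.7% and 13.7%.

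The median member went from 22.7 CPM in control soleus to 17.4, 15.2 and 20.4 over the unloading phases, and was at 7.74 on the first day of reloading, 11.3 by R3 and 13.2 by R7. In EDL the median member stayed between 12.6 and 17.9 CPM. The median ratio to control was 0.792 at D1, 0.712 at D3 and 0.947 at D7, while all 26 members of the chromosome 10 run described below were at or below 0.5 of control at D7. At D7, 57 members were at or below 0.5 of control, where 2.32% of all peaks were. At D1 and D3 the counts were 118 and 100, where 5.54% and 2.38% of all peaks were. At R3 the count was 280 and at R7 it was 178, against 4.33% and 5.16% of all peaks. All these ratios share the control libraries that chose the members. In EDL the corresponding unloading counts were 95, 208 and 21 in order of days, against 4.82%, 4.22% and 1.24% of all peaks. In reloading they were 52, 115 and 24, against 1.51%, 2.29% and 0.512% of all peaks. Of the 208 members in EDL at D3, 99 were among the 101 with copies described below, and 85 were single members. Summed, the members with copies held 5949 and 6809 CPM in EDL of D3 rats U9 and U10, and 34794 in U11.

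**Figure D2:**
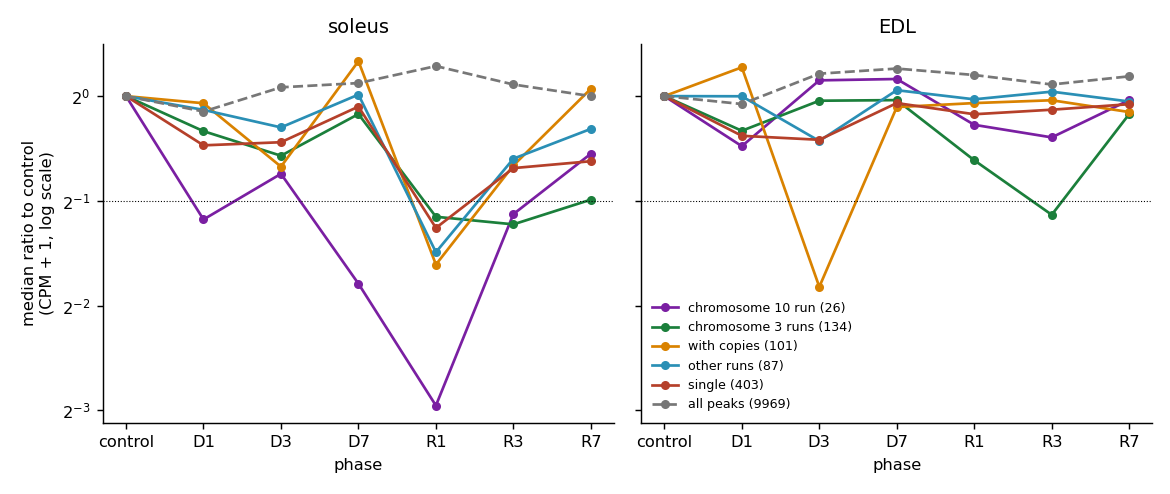
Median ratio to control (CPM plus 1, log scale) over the members of each kind and over all peaks, by phase, in soleus (left) and EDL (right). The members' soleus courses have their low point at R1, except that of the chromosome 3 runs, which is slightly lower at R3. The dotted line marks a ratio of 0.5.

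To follow the members with libraries that the rule did not use, R3 and R7 were compared with D7 in soleus. Calls required a Benjamini-Hochberg adjusted p under 0.05 over all tested peaks, by edgeR's quasi-likelihood test, and a change of over 2.38-fold in either direction. At R3, 28 members were lower than at D7 and 8 were higher, 4.79% of members against 5.53% of all peaks. In the lower direction the members' share was 3.73% and that of all peaks 2.06%, and in the higher direction 1.07% and 3.46%. Single members gave 24 of the lower and 6 of the higher calls, and shorter runs gave the other 4 and 2. The median member stood at −0.86 in log2 relative to D7, and the median peak at 0.01. All 3 R3 libraries lay below all 3 D7 libraries in 280 members (37.3%, against 16.6% of all peaks) and above them in 23 (3.06%, against 15.5%). The members wholly below D7 were 98 of 134 in the chromosome 3 runs (73.1%), none of 26 in the chromosome 10 run, 7 of 101 with copies (6.93%), 37 of 87 in shorter runs (42.5%) and 138 of 403 single members (34.2%).

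With the lane in the fit, no member was called at R3, against 2 of all peaks. Unadjusted p was then under 0.05 in 56 members and in 815 of all peaks, and the median member was at 0.38 and the median peak at 0.07. DESeq2 without the lane called 54 members and 8.38% of all peaks. By column totals 40 members were lower and 5 higher, against 233 and 229 of all peaks. The count was 15 without D7 rat U2, 23 without U1 and 20 without U3, where 1.61%, 4.07% and 2.42% of all peaks were called. It was 16 without R3 rat U4 and 18 without U16, where 2.16% and 2.55% were.

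By R7, 39 members were lower than at D7 and 21 were higher, 7.99% of members against 10.8% of all peaks. The lower share was 5.19% against 4.0% of all peaks, and the higher share 2.8% against 6.79%. The median member stood at −0.34 in log2 and the median peak at 0.02. The R7 libraries lay wholly below D7 in 141 members (18.8%, against 18.7% of all peaks) and wholly above in 37 (4.93%, against 6.55%). Of the 141 below, 125 were single members (31.0% of these), 15 were in shorter runs (17.2%) and 1 was in the chromosome 3 runs. With the lane in the fit, no member was called lower and 8 were called higher, against 86 and 74 of all peaks, unadjusted p was under 0.05 in 175 members and 1636 of all peaks, and the median member was at 0.6 and the median peak at 0.05. By column totals 62 were lower and 15 higher, against 605 and 537 of all peaks. Leaving out R7 rat U12 gave 34 calls where 6.52% of all peaks were called, leaving out U19 gave 112 where 16.3% were, and leaving out D7 rat U2 gave 37 where 6.57% were.

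Within unloading, 7 members were lower and 2 higher at D7 than at D1, 1.2% of members against 1.04% of all peaks, of which 0.447% were lower and 0.589% higher. The direction rested on the scaling, since by column totals none were lower and 12 were higher, against 21 and 224 of all peaks. Between those scalings the median peak moved by 0.32 in log2. With the lane in the fit 1 member was lower and 1 higher, against 18 and 38 of all peaks. The count was 3 without D1 rats U24 or U25 or D7 rat U1, where 0.73%, 0.375% and 0.659% of all peaks were called, and 1 without D7 rats U2 or U3, where 0.405% and 0.385% were.

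The members with the lowest R1 level relative to control were neighbours on chromosome 10. All 10 members with the smallest ratio among those with a control mean of at least 10 CPM lay there on the plus strand, 9 of them in the run of 26 between positions 53711560 and 53738235. Summed over the 26 members, the soleus controls held 343, 540 and 102 CPM in U6, U7 and U8, and the R1 libraries held 4.92, 1.71 and 17.4 CPM in U18, U20 and U21. The groups did not overlap, and the R1 libraries were also below those of D7, with 93.2, 57.5 and 50.5 CPM. Both are descriptions, since the run was singled out by its low R1 level relative to control. In the run, 2 members had a distant copy, and copies as near as these neighbours were not looked for. Among the 10, chr10:53729170-53729333 and chr10:53754263-53754447 had near-equal means, at 18.6 and 17.9 CPM in soleus control and 64.5 and 64.4 in EDL control. Whether reads that map to several places were counted in more than 1 of these peaks was not tested.

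Levels in this run were uneven before reloading. At D1 the soleus libraries held 22.8, 124 and 276 CPM and at D3 they held 7.14, 293 and 250 CPM. The D3 library of rat U9, at 7.14 CPM, was thus lower than the R1 library of U21. At R3 the run held 66.6, 63.6 and 268 CPM, and at R7 it held 112, 212 and 308 CPM, so every library of those phases was above every R1 library. In EDL of the same R1 rats the run held 608, 698 and 705 CPM. Within a rat, soleus stood at 57.5%, 56.9% and 16% of EDL in the controls and at 0.81%, 0.245% and 2.46% at R1.

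The highest of these members was chr10:53727161-53727410, with 60.4, 97.1 and 16.5 CPM in the soleus controls and 0.318, 0.0856 and 1.65 CPM at R1. It held 13.4, 8.43 and 6.88 CPM at D7, 6.16, 6.11 and 46.0 at R3, and 13.7, 31.9 and 54.6 at R7. The change from D7 was 1.07 ± 1.14 in log2 at R3 (SE, edgeR adjusted p = 0.56) and 2.12 ± 1.16 at R7 (adjusted p = 0.232), neither past the threshold. EDL held 123.7, 87.2 and 85.2 CPM at D7 and 47.4, 63.3 and 84.9 at R1, so every R1 library was below every D7 library. That change of −0.5 ± 0.69 did not pass the threshold (adjusted p = 1.0). Across the run, all 3 R7 libraries were above all 3 D7 libraries in 14 of the 26 members, against 6.55% of all peaks. None of the 26 was called at R7 relative to D7 by edgeR. They are neighbours in the same libraries, so they are not separate observations. Only 1 of the 26 had 50 or more soleus tags at R1, so where within a peak transcripts began could not be compared there.

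This stretch belongs to a region of chromosome 10 in which peaks on the plus strand form 3 blocks. The fast, embryonic and neonatal myosin heavy chain genes, which encode the motor proteins of fast and developing fibres, stand side by side on rat chromosome 10. In the GRCr8 RefSeq annotation their order is Myh3 (embryonic), Myh2, Myh1, Myh4 (adult fast) and Myh8 (neonatal), with long noncoding RNAs between them. That build differs from the one of the peaks, so no peak is assigned to a gene here. The Myh4 view that the study displays lies in the last block, which held no member, and none lay in its Rtkn view.

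The first block, chr10:53632914-53643843 with 10 peaks and 3 members, stood highest late in reloading in soleus. Its 10 peaks summed to 6.64, 14.8 and 16.3 CPM in controls, 6.71, 2.24 and 4.5 at D7, 1.11, 0.428 and 1.77 at R1, 32.0, 9.17 and 91.5 at R3, and 155, 233 and 24.8 at R7. All R7 libraries were above all controls, with U19 near the highest control. EDL means stayed between 18.9 and 36.7 CPM.

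The second block, chr10:53711560-53764563 with 62 peaks, held 28 members, among them the run. Its soleus means were 409 CPM in control and 156 at D7, then 15.2, 184 and 291 over the reloading phases, and its EDL mean was 2460 in control and 2470 at R1. Another 9 of its peaks met the R1 condition and fell outside the members. In 34 of the 62 the soleus control was under 0.25 of EDL control, with 1 CPM added to each. The third block, chr10:53778241-53800524, had 35 peaks, all with soleus control under 0.25 of EDL. Its EDL controls held 2790, 2640 and 2360 CPM. In soleus it held 22.6, 37.0 and 7.06 CPM in the controls and 3.34, 0.685 and 5.2 at R1. Its level was uneven before reloading, with 8.4, 8.05 and 177 CPM at D1 and a mean of 11.3 at D7.

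**Figure D3:**
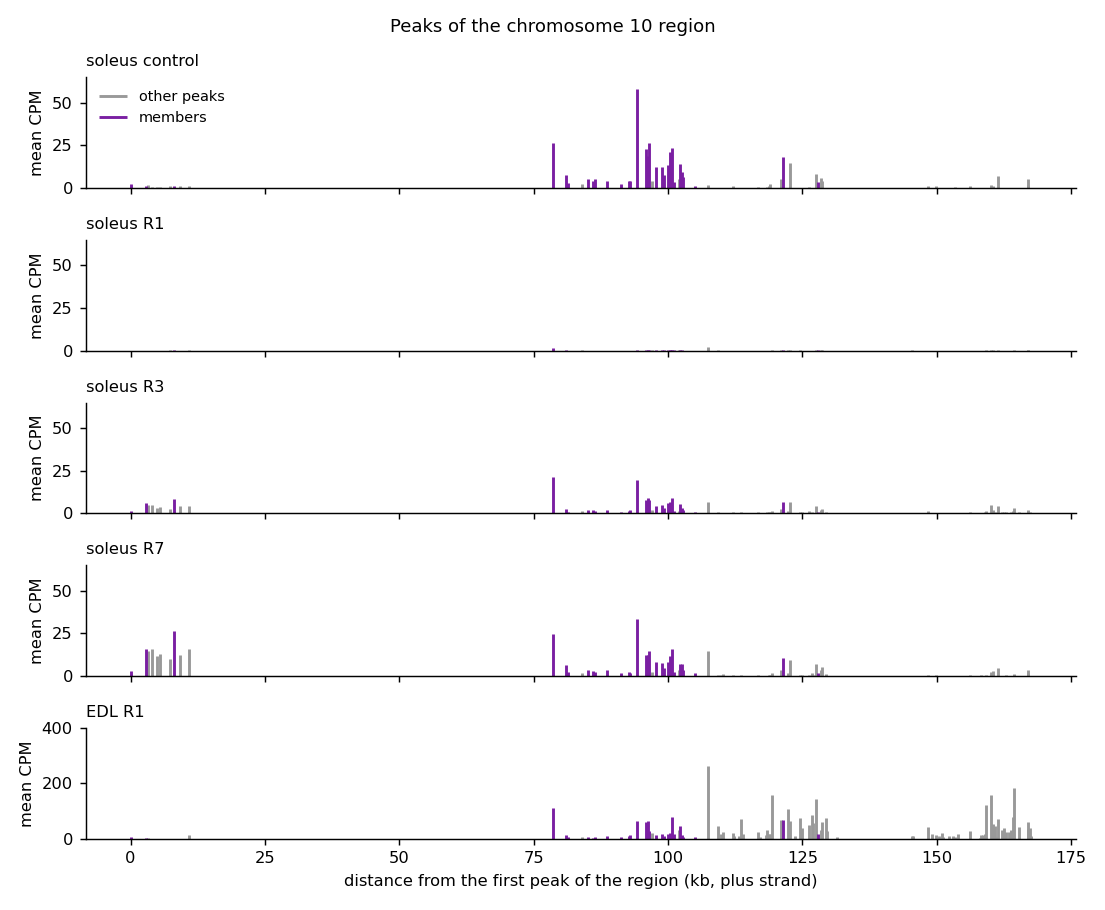
Mean CPM of each peak in the chromosome 10 region against its distance from the first peak, for soleus control, R1, R3 and R7 and for EDL R1, whose vertical axis is longer. Members are purple and other peaks grey. Members of the middle block are near 0 at soleus R1, and the first block is tallest at soleus R7.

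The first block gave the highest rises from D7 among the members. The member chr10:53635788-53636001 held 0, 0.107 and 0.265 CPM at soleus D7, 5.32, 1.21 and 11.9 at R3, and 18.98, 25.96 and 2.08 at R7. Its change was 5.7 ± 1.29 in log2 at R3 (SE, adjusted p = 0.0143) and 7.17 ± 1.29 at R7 (adjusted p = 0.00168), from only 2 tags in the D7 libraries. Pooled, the R7 level was 174 times that of D7 with a 95% exact interval of 47.8 to 1440, and the R3 level 43.2 times with an interval of 11.7 to 360, which cover counting error only.

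Its neighbour chr10:53641067-53641189 held 0.395, 0.107 and 0.529 CPM at D7, 7.42, 1.91 and 16.4 at R3, and 35.7, 39.9 and 3.24 at R7. The change was 4.87 ± 1.08 at R3 (adjusted p = 0.0131) and 6.59 ± 1.08 at R7 (adjusted p = 0.00102). Both peaks were called at R7 in all 12 alternatives, with the lane at 7.54 (adjusted p = 0.0425) and 7.56 (adjusted p = 0.0313). At R3 both calls were lost with the lane in the fit, at 6.17 (adjusted p = 0.356) and 5.98 (adjusted p = 0.341). Without D7 rat U2 the R3 changes were 5.49 (adjusted p = 0.0814) and 4.1 (adjusted p = 0.0822), and without R3 rat U16 they were 4.71 (adjusted p = 0.0516) and 3.91 (adjusted p = 0.0506). Their control levels were low, at most 2.77 CPM, so their place among the members rests on small values.

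Other members that rose from D7 at R3 were few. The member chr11:44221877-44222067 on the minus strand held 0.395, 1.07 and 0.793 CPM at D7, 18.9, 4.52 and 7.3 at R3, and 14.6, 13.3 and 3.7 at R7. Its change was 3.74 ± 0.8 at R3 (adjusted p = 0.0119). The broad peak chr1:215745784-215747221 on the minus strand held 341, 254 and 261 CPM at D7 and 2649, 545 and 1222 at R3, a change of 2.37 ± 0.62 (adjusted p = 0.028). Its R1 libraries overlapped the controls, since 1 control library, U8, held 2127 CPM while the others held 662 and 393. Both R3 calls were lost with the lane in the fit, at 1.5 (adjusted p = 0.84) and 2.59 (0.381). They were also lost without D7 rat U2 (0.0515 and 0.11) and without R3 rat U4 (0.0532 and 0.129). The second was also lost without D7 rats U1 (0.0583) and U3 (0.0836) and without R3 rat U16 (0.0536).

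Members called lower at R3 included broad and narrow peaks. The peak chr7:98061684-98062746 on the minus strand held 27.1, 21.6 and 31.2 CPM at D7, 5.88, 5.41 and 5.47 at R3 and 2.74, 3.82 and 3.47 at R7. Its change was −2.23 ± 0.39 at R3 (adjusted p = 0.00521) and −2.79 ± 0.41 at R7 (adjusted p = 0.000632). Its controls, at 12.5, 15.03 and 10.8 CPM, were below D7. In EDL its mean was 18.6 CPM at D7, 8.05 at R3 and 5.39 at R7, and the soleus change to R3 minus the EDL change was −1.19 ± 0.59 (adjusted p = 0.472). This R3 call held in every alternative except the lane fit, which gave −1.75 (adjusted p = 0.582). The R7 call was also lost in the lane fit, where no member was called lower.

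The peak chr10:92302444-92302687 on the minus strand held 13.4, 10.2 and 1.06 CPM at D7 and 0.28, 0.318 and 0 at R3, a change of −5.09 ± 1.13 (adjusted p = 0.0134) that rests on 7 tags at R3. For chr11:87435227-87435407 on the plus strand the D7 libraries held 4.94, 7.47 and 4.5 CPM and the R3 libraries 1.12, 1.72 and 0 (−2.43 ± 0.66, adjusted p = 0.032). For chr2:197813816-197813935 on the minus strand they held 8.69, 21.8 and 5.82 CPM and 1.96, 4.27 and 1.12 (−2.14 ± 0.56, adjusted p = 0.0268). In each of these the soleus R3 libraries lay below the D7 libraries. In EDL the chromosome 10 peak had means of 12.7 CPM at D7 and 2.58 at R3, the chromosome 11 peak 2.84 and 2.99, and the chromosome 2 peak 1.28 and 0.46. The soleus change minus the EDL change did not pass the threshold in any of them, at −2.78 ± 1.49 (adjusted p = 0.521), −2.58 ± 0.89 (adjusted p = 0.211) and −0.73 ± 1.23 (adjusted p = 0.886).

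None of those 3 calls held in the lane fit, where the last turned to 0.52 (adjusted p = 0.969). The first gave −5.92 (adjusted p = 0.356) there, and missed the threshold without R3 rats U4 (0.0527) or U16 (0.0505). The second gave −1.47 (0.801) there, and missed it without D7 rats U1 (0.055), U2 (0.0979) or U3 (0.0657) or R3 rat U4 (0.0888). The last missed it without D7 rat U2 (0.154) or R3 rats U4 (0.0951) or U16 (0.098).

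At R7 the lower calls with the greatest change were at low levels. The peak chr15:33102426-33102531 on the plus strand held 12.8, 5.97 and 10.3 CPM at D7 and 0.219, 0.558 and 0.926 at R7 (−4.0 ± 1.13, adjusted p = 0.0216). The peaks chr17:32975564-32975797 and chr17:32083345-32083725 on the plus strand held 3.36, 5.33 and 3.44 and 2.17, 3.63 and 2.65 CPM at D7. At R7 they held 0.329, 0.093 and 0.463 CPM and 0, 0.279 and 0.463 CPM, with changes of −3.68 ± 0.83 (adjusted p = 0.00628) and −3.37 ± 0.94 (adjusted p = 0.0203).

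In those 3 peaks every R7 library was below every D7 library. The chromosome 15 peak was low at R7 in EDL too, with 6.45, 1.46 and 7.76 CPM at D7 and 0.376, 0.18 and 1.69 at R7, and it is one of 4 members described last, with 4 rats high and 4 low in both muscles and 13 between. All 3 calls were lost in the lane fit, where the changes were −3.89 (adjusted p = 0.17), −3.65 (0.0785) and −2.88 (0.165). The chromosome 15 peak also missed the threshold without D7 rat U1 (0.051) or R7 rats U12 (0.109) or U13 (0.0718), and the second chromosome 17 peak without D7 rat U2 (0.0592) or R7 rats U12 (0.0882) or U13 (0.062).

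The third higher call at R7 depended on 1 rat. The peak chr3:122920622-122920762 on the minus strand held 0.79, 0.427 and 0 CPM at D7 and 34.6, 4.09 and 0 at R7 (4.89 ± 1.31, adjusted p = 0.0163). Without R7 rat U12 the change was 2.63 (adjusted p = 0.191). It also missed the threshold without D7 rats U2 (4.76, adjusted p = 0.0756) or U3 (4.49, 0.0612) and in the lane fit (5.47, 0.219).

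The most abundant member, chr19:56676367-56677617 on the minus strand, carried far more tags than any other. It held 39960, 38040 and 64740 CPM in the soleus controls and 7726, 29360 and 19540 at R1. The 3 R1 libraries were below the controls, with U20 at 29360 well above U18 at 7726. At D7 it held 29040, 35920 and 21570 CPM and at R7 53390, 68800 and 35100, a change of 1.08 ± 0.35 in log2 (adjusted p = 0.0437) that was under the fold threshold. Transcripts began mainly at 1 position, which took 83.3% of its tags in control and 84.3% at R1.

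Among the members next by level, the R1 to control ratio was 0.477 for the second and 0.399 for the third, beside 0.397 for the chromosome 19 peak. The peak chr5:59025390-59026026 on the minus strand held 6372, 5711 and 8832 CPM in controls and 2038, 4609 and 3319 at R1. The peak chr16:49266710-49267136 on the plus strand went from 2413, 2013 and 2744 CPM to 650, 1117 and 1089, and its main start position kept 72.7% of the tags in both groups. Neither differed from D7 past the threshold at R3 (adjusted p = 0.354 and 0.241) or R7 (adjusted p = 0.939 and 0.632). In EDL at R1 they held 4524 to 8936 CPM and 1871 to 3548 CPM. The next pair by level, chr14:46643114-46645135 and chr14:46647874-46649735 on the minus strand, had ratios of 0.319 and 0.365 and are among the members with near-identical copies described below. The first of this pair held 1776, 1739 and 1627 CPM in controls and 1124, 227.9 and 285.1 at R1, and the other held 1601, 1783 and 1343 and then 1080, 308.1 and 333.6. Neither differed from D7 past the threshold at R3 (adjusted p = 0.476 and 0.455).

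The longest run outside chromosomes 3 and 10 lay at chr7:29091397-29139560 on the minus strand and held 16 members. All 16 met the rule with any 1 library left out, with ratios of 0.166 to 0.321. Summed, they held 338, 490 and 271 CPM in the soleus controls, 465, 330 and 297 at D7, 52.1, 80.6 and 93.3 at R1, 176, 165 and 207 at R3, and 155, 218 and 347 at R7. The R1 libraries were below those of every other soleus phase. EDL held 260, 359 and 320 CPM at R1 against 243, 381 and 349 in control. The sixth most abundant member, chr7:29171707-29171998 on the same strand, lies 32.1 kb away and held 1374, 1214 and 1858 CPM in controls and 381, 686 and 703 at R1.

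Outside the runs, the following members were chosen after their values were seen, as single peaks with low ratios. The peak chr16:8930691-8931085 on the minus strand held 51.8, 44.6 and 74.2 CPM in soleus controls, 10.4, 12.9 and 11.4 at D1, 5.73, 26.4 and 6.08 at D7 and 3.1, 6.94 and 6.44 at R1. It was thus already low from the first day of unloading. The peak chrX:106749559-106749817 on the minus strand held 20.9, 17.5 and 12.4 CPM at D7, 1.67, 3.25 and 4.79 at R1, 61.1, 29.2 and 17.4 at R3 and 56.5, 44.5 and 21.1 at R7. Its change from D7 to R7 was 1.42 ± 0.39 (adjusted p = 0.0184). The peak chrX:23144223-23144458 on the minus strand held 8.29, 15.04 and 5.82 CPM at D7, 0.397, 1.03 and 2.07 at R1, 3.78, 4.9 and 6.32 at R3 and 2.63, 2.79 and 3.47 at R7. The R7 libraries were thus all above R1 and all below D7, with a change from D7 of −1.49 ± 0.46 (adjusted p = 0.0325). That call was lost with the lane in the fit, where no member was called lower at R7.

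The 134 members on chromosome 3 did not show the fall cleanly. They lay in 3 stretches, chr3:63565208-63677997 with 84 members, chr3:63701048-63766162 with 34 and chr3:63793813-63831035 with 16. Summed, they held 12193, 4012 and 9464 CPM in the soleus controls U6, U7 and U8 and 5264, 3010 and 3168 at R1. Control U7 thus lay below the highest R1 library, and in 5 of the 134 members (3.73%) all R1 libraries were below all controls, against 16.2% of all peaks. At R3 they held 3659, 3647 and 3612 CPM and at R7 1649, 8533 and 2883. In EDL they summed to 3606 to 7636 CPM in control and 2280 to 2604 at R3, where 96 of the 134 (71.6%) were at or below 0.5 of EDL control, against 2.29% of all peaks. With any 1 library left out, 9 of the 134 kept to the rule.

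The 101 members with near-identical copies stood lower in libraries with more tags. A copy was a peak over 100000 nt away, or on another chromosome, whose values correlated above 0.98 over the 42 libraries and lay within 1.5 times in level. Since the authors kept reads that mapped to several places, tags of such peaks may be counted more than once or assigned to the wrong copy. Summed, these members held 37835, 38035 and 33549 CPM in the soleus controls and 23428, 6089 and 7285 at R1.

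Over the 42 libraries ordered by their tags in peaks, the 14 with the fewest (1696341 to 5472051 tags) held 45756 to 86441 CPM in these members, with a median of 64355. The 14 in the middle held 6089 to 58567 CPM, with a median of 34701, and the 14 with the most (12590711 to 22116123 tags) held 5949 to 40338, with a median of 17652. The 14 with the most tags included R1 rats U18 and U21 and control U6 in soleus. Low levels also occurred before reloading: at D3 rats U9, U10 and U11 held 9879, 6854 and 52207 CPM in soleus and 5949, 6809 and 34794 in EDL. The part of library size in the R1 values of these members was not tested.

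**Figure D4:**
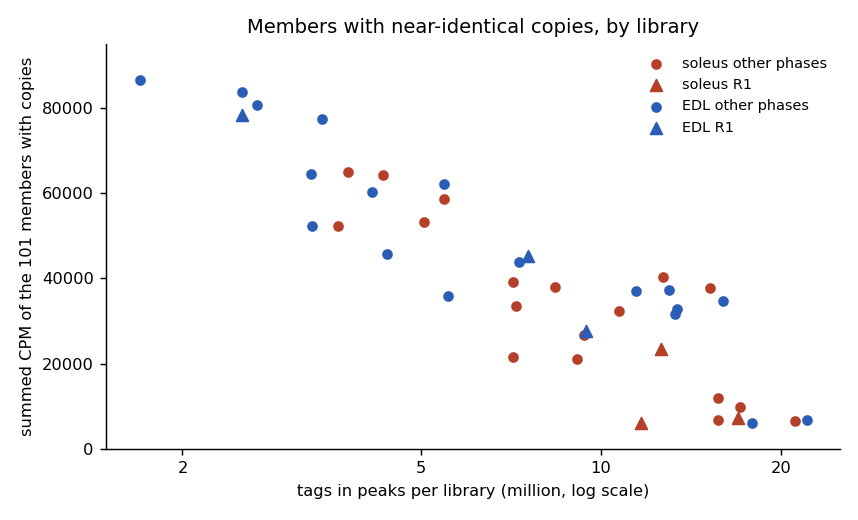
Summed CPM of the 101 members with near-identical copies in each of the 42 libraries, against the number of tags in peaks (log scale). Red is soleus and blue is EDL, triangles are R1 and circles other phases. The 14 libraries with the fewest tags sit at 45756 CPM or above, and the 14 with the most at 40338 or below.

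EDL on the first day of reloading was compared with its own D7 libraries. Of 744 members tested, edgeR called none at R1 relative to D7, where it called 0.0214% of all peaks. Unadjusted p was under 0.05 in 50 members and in 576 of 9345 peaks, and DESeq2 called 4 members, 2 in each direction, against 39 lower and 7 higher of all peaks. The median member stood at −0.2 in log2 and the median peak at −0.02, but with the lane in the fit the median member was at 0.84 and the median peak at 0.03. Unadjusted p was then under 0.05 in 30 members and 336 of all peaks, and none was called. Without the lane the median was −0.62 in the chromosome 3 runs, −0.35 in the chromosome 10 run, 0.01 in members with copies, −0.03 in shorter runs and −0.09 in single members. The EDL R1 libraries lay wholly below D7 in 65 members (8.66%, against 4.21% of all peaks) and wholly above in 21 (2.8%, against 3.2%).

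The change from D7 to R3 was then compared between the muscles. It differed in 7 members, 0.932% of them against 0.814% of all peaks. The soleus change was lower in 5 members (0.666%, against 0.231% of all peaks) and higher in 2 (0.266%, against 0.583%). With the lane in the fit 3 members were called, all lower, against 11 lower and 35 higher of all peaks. The count was 4 without soleus D7 rats U1, U2 or U3, soleus R3 rat U4 or EDL R3 rat U5, and 3 without soleus R3 rat U16, EDL D7 rat U1 or EDL R3 rat U16, where 0.442% to 0.663% of all peaks were called. It was 12 without EDL R3 rat U4, where 1.55% of all peaks were called. Without EDL D7 rat U3 it was 2 lower and 3 higher, against 13 and 65 of all peaks. The clearest was chr16:79587187-79587960 on the minus strand. In soleus it held 26.5, 32.4 and 29.9 CPM at D7 and 10.2, 7.7 and 8.0 at R3, while EDL held 17.4, 21.01 and 22.1 at D7 and 23.9, 45.3 and 34.0 at R3. The log2 change was −1.74 in soleus and 0.86 in EDL, a difference of −2.61 ± 0.49 (adjusted p = 0.00503), and it passed in all 18 alternatives, with the lane at −2.51 (adjusted p = 0.0366). Its level had been 4.13, 3.34 and 8.27 CPM in soleus at R1 and stayed at 4.28, 5.3 and 5.33 at R7. It was also low at D1, with 5.66, 4.74 and 11.1 CPM in soleus against 22.7, 25.5 and 12.9 in control. A low level was thus not particular to reloading.

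A second peak on the same strand, chr16:79659843-79660103, had the same direction at higher levels. It held 84.7, 152 and 61.4 CPM in soleus at D7 and 77.1, 40.6 and 29.8 at R3, and 66.6, 76.2 and 67.8 in EDL at D7 and 103, 157 and 143 at R3. The difference was −1.95 ± 0.49 (adjusted p = 0.049), and −2.29 with the lane (adjusted p = 0.0366). By column totals it was −1.95 (adjusted p = 0.167), and leaving out 1 library gave −2.02 to −1.64 (adjusted p = 0.0708 to 0.172) for soleus D7 rats U1 and U2, soleus R3 rats U5 and U16, EDL D7 rats U1 and U3 and EDL R3 rats U5 and U16. The soleus groups overlapped and the EDL groups did not.

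The peak chr2:212849577-212849828 on the plus strand held 11.4, 20.1 and 21.4 CPM in soleus at D7 and 13.01, 8.66 and 5.33 at R3, while its EDL mean was 6.04 CPM at D7 and 12.9 at R3. The difference was −2.14 ± 0.51 (adjusted p = 0.0309). It was −2.22 with the lane (adjusted p = 0.0928), −2.05 by column totals (0.102) and −2.26 to −1.89 (0.0576 to 0.0951) without soleus D7 rats U2 or U3, soleus R3 rat U16, EDL D7 rats U1 or U3 or EDL R3 rat U16. In the opposite direction, chr16:2142254-2142574 on the minus strand held 3.75, 7.25 and 3.97 CPM in soleus at D7 and 17.2, 9.61 and 7.02 at R3, and 9.74, 7.59 and 12.4 in EDL at D7 and 1.45, 5.69 and 3.95 at R3. Its difference was 2.47 ± 0.52 (adjusted p = 0.0127), and it missed the threshold with the lane (2.11, adjusted p = 0.0909) and without soleus R3 rat U4 (2.09, 0.0609). The difference of chr10:53635788-53636001 was 6.85 ± 1.72 (adjusted p = 0.0474). It missed the threshold with the lane (7.06, adjusted p = 0.123) and, at 5.9 to 7.52, without any 1 of the 12 libraries other than soleus R3 rat U5 and EDL R3 rat U4 (0.069 to 0.145).

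**Figure D5:**
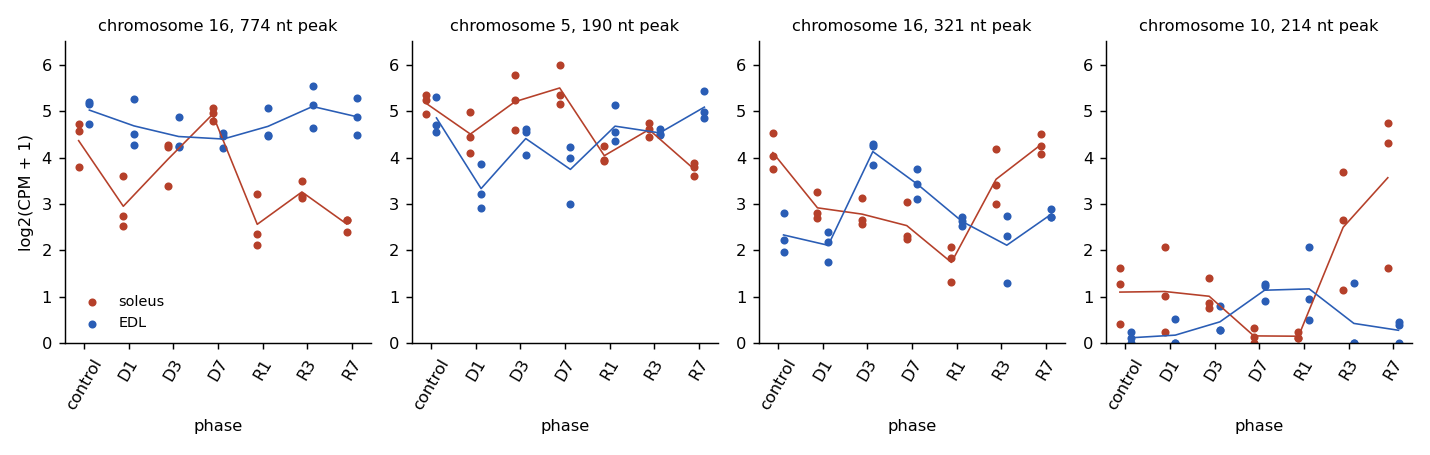
Level in log2(CPM + 1) by phase in soleus (red) and EDL (blue) of 4 of the 7 members whose change from D7 to R3 differed between muscles. Points are libraries and lines join means of 3. In the first panel soleus is low at D1 and from R1 to R7 while EDL is not, and in the last soleus is highest at R7.

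At R7 the members of soleus were compared with those of EDL. Soleus was lower in 72 members and higher in 21, 12.4% of members against 16.7% of all peaks. The rule had kept only peaks whose control means, with 1 CPM added, lay within 4 times of each other between the muscles. All peaks include those that differ more, so these shares are not comparable as a result about the members. The lower share was 9.59% against 7.49% of all peaks and the higher share 2.8% against 9.18%, with medians of −0.31 and 0.03 in log2. With the lane the counts were 69 and 22, against 744 and 860 of all peaks, and with the rat as a block 71 and 21, against 745 and 832. Leaving out 1 library gave between 72 and 113 calls, where 13.7% to 19.1% of all peaks were called. Both chromosome 17 peaks named above were among the lower, at −5.96 ± 0.75 (adjusted p = 4.69e-07) and −5.64 ± 0.79 (adjusted p = 2.33e-06), against control means that already differed, at 2.81 CPM in soleus and 14.2 in EDL for the first and 2.64 and 9.94 for the other, and with EDL R7 levels of 14.7, 19.6 and 10.3 CPM and 9.02, 14.8 and 7.16 CPM. The chromosome 10 peak chr10:53641067-53641189 was higher in soleus by 8.62 ± 1.39 (adjusted p = 1.6e-05), with 1 EDL R7 library above 0, at 0.077 CPM. Its control means also differed already, at 1.46 CPM in soleus and 0.102 in EDL.

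The spread of start positions differed between kinds of members. Over the 746 members with at least 50 pooled soleus control tags, the main start position took 18.8% of the tags at the median, against 22.8% over all peaks. It was 22.6% in single members and 22.1% in shorter runs, and 9.96%, 16.4% and 16.2% in members with copies and in the chromosome 3 and chromosome 10 runs. The central 80% of tags spanned 94 nt at the median, against 48 nt. The 101 members with copies were broadest at 201 nt, followed by the chromosome 3 members at 165 nt, while single members spanned 64 nt. Where both groups had 50 tags, the main position was the same in control and R1 in 482 of 646 members (74.6%, against 74.7% of all peaks).

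In a few members some rats were high and others low in both muscles. In 4 members (0.533%, against 0.0903% of all peaks) at least 3 rats had 5 CPM or more in both muscles, at least 3 others had under 1 CPM in both, and no rat was split between its muscles. The libraries that chose the members enter this count, so these shares are a description and not a result about the members. The rats that met neither condition numbered 13, 1, 13 and 5 in the 4 members, and the member with 1 is described here. The 18 nt peak chr15:88692545-88692562 on the minus strand held 29.2, 0 and 0.554 CPM in the soleus controls and 27.7, 0 and 1.1 in EDL of the same rats. At D7 it held 98.3, 54.0 and 49.2 CPM in soleus and at R1 0.477, 0.599 and 0.177. At R3 it held 86.0, 59.97 and 100.6, and at R7 0.439, 0.465 and 43.1. It was thus high in every D7 and R3 rat and low in every R1 rat, while rats of the control and R7 phases were split. Among the soleus controls it exceeded 1 CPM in U6 alone, and that library sets its R1 to control ratio.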

How the data were processed

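Total RNA of 42 muscles was made into CAGE libraries with the nAnT-iCAGE kit. The authors trimmed the reads, mapped them to Rnor_6.0 while keeping reads that map to several loci, and clustered start positions into peaks with DPI1. The methods name STAR as the aligner, and the submitters' processing notes list Trimmomatic 0.38, BWA and HISAT2. They deposited raw tag counts per peak and per start position, which are the values used, and every column matched 1 sample. Tags summed within peaks from the start positions equalled the peak counts in all libraries. The deposited normalised columns were not used, and 2 mitochondrial peaks were left out of the members.

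Contrasts were fitted on the counts with edgeR 4.0.16 (R 4.3.3, TMM, filterByExpr, quasi-likelihood F test) in 21 libraries of soleus or EDL, or in all 42 for differences between muscles, with DESeq2 1.42.0 as an alternative. Every fit with the lane used all 42 libraries, also for contrasts within 1 muscle. Of 9971 peaks, 9842 were tested in soleus, 9345 in EDL and 9947 in both. The SE given with an edgeR change was derived from its test, as the absolute log2 change divided by the square root of F. The same code was tested on simulated data. The rat pairs the muscles, since the labels give both of its libraries the same number. Deviations from group means correlated between the muscles of a rat at −0.38 to 0.55, median 0.25, and above 0.1 in 15 of 21 rats. The lane came from the deposited library names.

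Named members were the 10 with the lowest ratio at a control mean of at least 10 CPM, the 6 with the highest control mean, up to 4 called in each direction at R3, up to 3 at R7, in EDL and in the difference between muscles, the peaks nearest the limit and any member in the study's Myh4 and Rtkn views. Members, gene lists and this rule were chosen with earlier results of these data known. The gene and cell type lists went unused, because the gene tables at hand are of another build (GRCr8), and no sequence is shown for the same reason.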

Additional observations from a re-analysis of the deposited data

Results flagged for a closer look

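In 7 members the change from D7 to R3 differed between soleus and EDL by a test of the difference itself (edgeR, Benjamini-Hochberg adjusted, 42 libraries). That was 0.932% of members, near the 0.814% of all peaks that were called. The soleus change was the lower for chr16:79587187-79587960, with a difference of −2.61 in log2, chr2:212849577-212849828 with −2.14, chr16:79659843-79660103 with −1.95, chr8:49453266-49456025 with −1.89 ± 0.47 (adjusted p = 0.0478) and chr5:154598687-154598876 with −1.79 ± 0.34 (adjusted p = 0.00503). It was the higher for chr16:2142254-2142574, with 2.47, and chr10:53635788-53636001, with 6.85. The chromosome 5 member held 39.9, 62.7 and 34.4 CPM in soleus at D7 and 20.9, 25.7 and 23.6 at R3, while EDL held 17.8, 7.0 and 14.99 at D7 and 21.7, 23.4 and 21.3 at R3, so neither muscle's groups overlapped. Its call held with the lane in the fit (−1.56, adjusted p = 0.0496), with the rat as a block and without any 1 library, and was lost by column totals (−1.69, adjusted p = 0.0952). The chromosome 8 member held 23.9, 17.8 and 21.7 CPM in soleus at D7 and 9.65, 11.1 and 9.97 at R3, and 13.4, 10.5 and 8.89 in EDL at D7 and 18.1, 17.98 and 20.7 at R3, again without overlap. Its call was lost with the lane (−1.67, adjusted p = 0.258) and with the rat as a block (−1.91, adjusted p = 0.0887). It was also lost without soleus D7 rat U1 (−1.78, adjusted p = 0.101) or U3 (−1.8, 0.0941), soleus R3 rat U4 (−1.81, 0.119) or U16 (−1.86, 0.0951), EDL D7 rat U1 (−2.0, 0.0739) or U3 (−1.62, 0.139), and EDL R3 rat U5 (−1.88, 0.0845) or U16 (−1.85, 0.082).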

How the results depend on the processing

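Another library size method (RLE) or no filter on low counts kept every count of called members within 1.5 times. With the lane in the fit the count went from 36 to 0 at R3 vs D7, from 60 to 8 (all higher, the direction turned) at R7 vs D7, from 9 to 2 at D7 vs D1 and from 7 to 3 for the difference between muscles. At R3 vs D7 56 members then had an unadjusted p under 0.05, and DESeq2 without the lane called 54. There chr2:197813816-197813935 stood at 0.52 with the lane. By column totals D7 vs D1 gave 12, all higher. DESeq2 gave 15 at D7 vs D1, 4 for EDL R1 vs D7 and 14 for the difference between muscles. Over all peaks the lane gave 2 calls in place of 544 at R3 vs D7, 160 in place of 1062 at R7 vs D7, 56 in place of 102 at D7 vs D1 and 46 in place of 81 for the difference between muscles. DESeq2 gave 836, 1234, 288 and 165 for these, and 46 in place of 2 for EDL R1 vs D7. Column totals gave 245 at D7 vs D1 and 4 for EDL R1 vs D7. Without the fold cutoff there were 861 at R3 vs D7 and 1635 at R7 vs D7. A fit over all 42 libraries without the lane was added after seeing the data, and gave 43 at R3 vs D7 and 65 at R7 vs D7, where 5.52% and 10.7% of all peaks were called.

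Leaving out 1 library gave 15 to 25 calls at R3 vs D7, 34 to 112 at R7 vs D7, 1 to 9 at D7 vs D1, 3 to 12 for the difference between muscles, 72 to 113 for soleus vs EDL at R7, 0 in every case for EDL R1 vs D7, and 635 to 854 members of the rule. Without EDL D7 rat U3 the difference gave 2 lower and 3 higher, 5 in all. With the rat as a replicate block the difference between muscles gave 8 calls and soleus vs EDL at R7 gave 92, and no count moved by over 1.5 times. Of all peaks, 1.11% and 15.9% were called in those fits. Of 21 tests of single named members, 3 kept their call under every alternative, which were chr10:53635788-53636001 and chr10:53641067-53641189 at R7 and chr16:79587187-79587960 for the difference between muscles. An offset of 5 CPM gave 419 members and TMM scaling 1341. The causes were not tested. Low tag counts at R1 limit what can be said of start positions there.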
